A study of Mus musculus with 2 samples.

Results

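The miR-30 family was followed on both of its precursor arms in mouse ovarian tumours, with 1 tumour RNA from a mouse or mice given control IgG and 1 from the bevacizumab group. The members were chosen by name: the 5 mature miRNAs of the 5p arm, mmu-miR-30a-5p, mmu-miR-30b-5p, mmu-miR-30c-5p, mmu-miR-30d-5p and mmu-miR-30e-5p, and the 3p arms mmu-miR-30a-3p, mmu-miR-30e-3p, mmu-miR-30c-1-3p and mmu-miR-30c-2-3p. The species prefix is left out below. These are 9 of the 1900 miRNA probes on the array, and each has its own probe, printed in 1 spot. Both groups were C57BL/6 mice, 5 weeks of age when bought, which carried tumours of luciferase-expressing ID-8 cells (ID-8 LUC2, a mouse ovarian cancer line) injected into the peritoneal cavity. From day 14 until day 42 the control group received control IgG and the other group bevacizumab, an antibody raised against human VEGF-A, each at 5 mg/kg and 2 times a week. It is not stated whether each RNA was from 1 animal or a pool, and the texts name both a tumour and a cell extraction, with different columns. With 1 array per group no test between the groups was possible, no p-value is given, and every difference below is a difference between these 2 arrays.

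A miRNA is cut from a hairpin precursor, and either strand of the hairpin stem, the 5p or the 3p arm, can be loaded into the silencing complex. Bases 2 to 8 of the loaded strand, the seed, pair with target messenger RNAs, so miRNAs that share a seed share many predicted targets. In the miR-30 family the 5p arm is the main product and is abundant in many epithelia, in kidney and in endothelium. In human cells and zebrafish, miR-30 5p miRNAs repress the Notch ligand DLL4, which restrains the sprouting of new vessels, and the family also represses SNAI1, an inducer of epithelial-mesenchymal transition.

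The mature sequences show why the members have to be read together: the 5p arms have the same seed, and the closest pairs differ by a single base. Sequences were taken from RefSeq (GRCm38.p6), where 7 of the 9 members were matched. They run 5′ to 3′, and capitals mark the seed.
miR-30a-5p: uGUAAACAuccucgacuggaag
miR-30e-5p: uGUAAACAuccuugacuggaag
miR-30c-5p: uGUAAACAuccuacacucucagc
miR-30a-3p: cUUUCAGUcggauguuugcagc
miR-30e-3p: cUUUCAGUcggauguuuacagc
miR-30c-1-3p: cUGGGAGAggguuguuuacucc
miR-30c-2-3p: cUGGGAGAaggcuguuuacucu
The first 12 bases of these 3 5p arms are identical. miR-30a-5p and miR-30e-5p match at 21 of 22 positions and differ by C13U, counted from the 5′ end with the miR-30a-5p base first. Their 3p arms also match at 21 of 22 positions and differ by G18A. The 3p arms therefore form 2 seed groups, UUUCAGU for miR-30a-3p and miR-30e-3p and UGGGAGA for both miR-30c 3p arms, which differ at 3 of 22 positions (G9A, U12C and C22U). Probes for sequences this close can share signal, and the files hold no measure of how much.

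The hairpins lie in 3 neighbouring pairs. On chromosome 1, miR-30a-5p (chr1:23272274-23272295, plus strand) and the Mir30c-2 copy of miR-30c-5p (chr1:23291714-23291736, plus strand) come from adjacent genes, and neither lies within the span of another RefSeq gene. On chromosome 4, miR-30e-5p (chr4:120772660-120772681, minus strand) and the Mir30c-1 copy of miR-30c-5p (chr4:120769584-120769606, minus strand) lie within the span of Nfyc, which encodes a subunit of the transcription factor NF-Y. The reference tables give no exons, so exon or intron is not stated here. Mir30b and Mir30d are adjacent genes on chromosome 15. The 2 copies give the same miR-30c-5p, so its probe reads the product of both loci, whereas their 3p arms differ and have separate probes.

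Signals are given as spot intensity less the mean blank level, from 896 blank spots per array. Blank spots read 72.8 ± 0.828 units with control IgG and 185 ± 4.03 units with bevacizumab (mean ± SD over spots, trimmed). A miRNA was called detected above the blank mean plus 2 SD, which is a signal of 1.66 units for the control array and of 8.06 for the bevacizumab array. The control array detected 1416 of the 1900 miRNA probes and the bevacizumab array 940, with 917 detected on both. The 5 brightest control probes printed in 8 spots were brighter with bevacizumab than with control IgG, by ratios between 4.61 and 5.11. The spread of their repeat spots gave a log2 difference between the arrays an SD of 0.16. This spot error comes from bright probes and covers neither labelling nor animals, and for dim spots the blank-spot SD is given beside the signal. All 9 miR-30 members were detected with control IgG and 8 with bevacizumab.

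Among the 5p arms, 4 of 5 gave a weaker signal on the bevacizumab array by several fold, and miR-30d-5p differed least. miR-30e-5p read 998 units with control IgG and 103 units with bevacizumab. miR-30b-5p read 2118 and 318 units. miR-30c-5p read 2223 and 526 units. These signals, before any scaling, were 9.65-fold, 6.66-fold and 4.23-fold lower on the bevacizumab array, although the 5 control probes were brighter there. miR-30a-5p read 1691 units with control IgG and 556 with bevacizumab, a 3.04-fold lower signal. miR-30d-5p, which in human tumours is often studied as an oncogenic miRNA, read 1549 and 1131 units, a 1.37-fold lower signal. All 10 of these readings were above the stricter limit of 5 SD over the blanks, and the blank-spot SD was at most 3.90% of any of them (miR-30e-5p on the bevacizumab array).

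**Figure D1:**
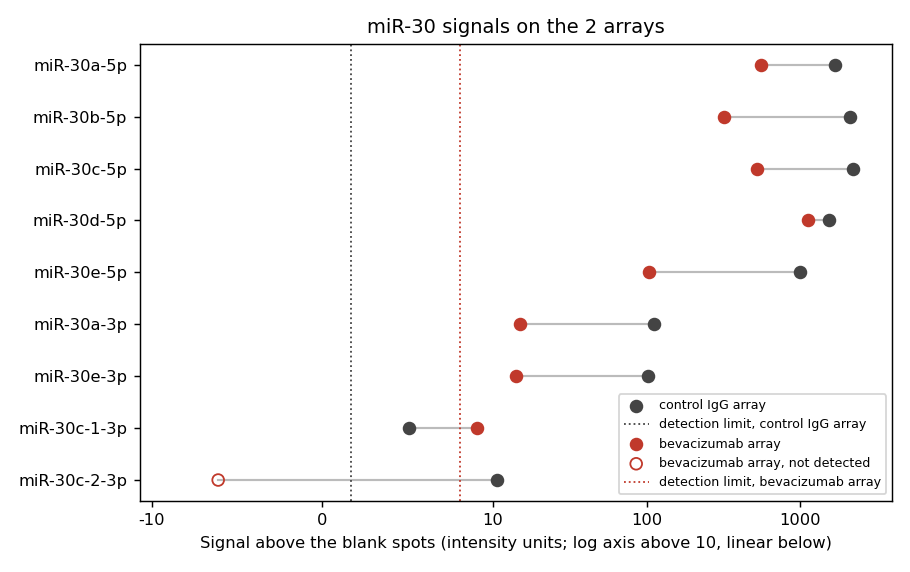
Signal above the blank spots (intensity units, log axis above 10 and linear below) of the 9 miR-30 members on the control IgG array (dark) and the bevacizumab array (red), 1 spot per array, with dotted lines at each array's detection limit. The 5p arms lie between 103 and 2223 units, miR-30a-3p and miR-30e-3p lie at 111 and 102 units with control IgG and at 14.9 and 14.1 with bevacizumab, and the miR-30c 3p arms lie near the limits.

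The arrays were put on one scale by a background model with an offset of 50 units and quantile normalization over the 1900 miRNA probes, and differences on that scale are log2 values, bevacizumab minus control. The largest was that of miR-30e-5p at -2.64 (6.25-fold lower), and 10 of the 917 miRNAs had a lower value. miR-30b-5p followed at -2.18 (4.54-fold lower), miR-30c-5p at -1.52 (2.87-fold) and miR-30a-5p at -1.08 (2.12-fold). miR-30d-5p lay at 0.15, within 1 repeat-spot SD of 0 and near the median of 0.14 over all 917 miRNAs. In that order the step from miR-30c-5p to miR-30a-5p, 0.44, was within 2 SD of a difference between 2 members (0.45). The step from miR-30e-5p to miR-30b-5p, 0.46, was just beyond it, and those from miR-30b-5p to miR-30c-5p (0.67) and from miR-30a-5p to miR-30d-5p (1.24) were clearly larger. miR-30a-5p passed the 2-fold size by less than 1 repeat-spot SD.

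Over both arms, 8 members were detected on both arrays. Of these 8, 6 passed the 2-fold size downward and 0 upward. Among all 917 miRNAs the shares were 11.6% downward and 10.5% upward. Level matters for this reading, because the offset holds dim miRNAs near 0. Of 70 other miRNAs whose mean level over both arrays lay within the range of the 5p members, 32.9% were 2-fold or more lower and 48.6% 2-fold or more higher, and their median was 0.84. The 5p median was -1.52, and miR-30d-5p, at 0.15, was also below the median of those 70. Of 552 other miRNAs within the mean level range of the 3p members, 1.99% were at least 2-fold lower, and their median was 0.12. That range reaches down to miR-30c-1-3p, near the detection limit, where the offset leaves little room for a 2-fold drop. The share is therefore low by construction and is no matched background for miR-30a-3p and miR-30e-3p.

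**Figure D2:**
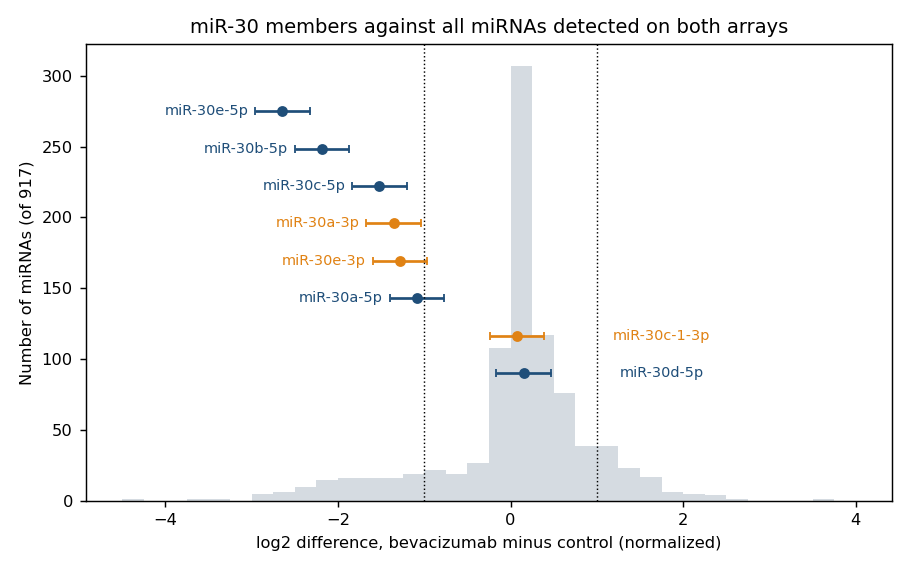
Normalized log2 differences (bevacizumab minus control, x axis) of the 8 miR-30 members detected on both arrays, with bars of 2 repeat-spot SD from the bright control probes, over a histogram of all 917 miRNAs (y axis, number of miRNAs). Blue points are 5p arms and orange points 3p arms, their heights carry no value, and dotted lines mark 2-fold; 6 members lie beyond the lower line, and miR-30d-5p and miR-30c-1-3p lie in the main peak.

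In the main setting, 3 of 4 pairs of 5p arms with a shared locus or near-identical sequence differed by more than 2 SD (0.45). miR-30b-5p and miR-30d-5p, from adjacent hairpins, were 2.34 apart on the log2 scale, 10.5 times the SD of such a gap (0.22). The gap was 2.28 in the authors' deposited table, where each array has its own single scale factor. miR-30a-5p and miR-30e-5p, which differ by C13U, were 1.56 apart, and 1.67 apart in the deposited table. miR-30c-5p and miR-30e-5p, neighbours within Nfyc, were 1.12 apart, but miR-30c-5p also has its copy on chromosome 1. miR-30a-5p and miR-30c-5p, neighbours on chromosome 1, were 0.44 apart, within those 2 SD. In the deposited table this gap was 0.48, just beyond them. A gap between 2 members is the same under any single scale factor per array, unlike the size of each member's own difference. It does depend on the background: corrected by the local background, miR-30b-5p and miR-30d-5p were 0.37 apart, and miR-30a-5p was the lower of its pairs with miR-30e-5p, by 2.49, and with miR-30c-5p, by 5.02.

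The 3p arms were dim, and on the bevacizumab array they were close to the detection limit. miR-30a-3p read 111 units with control IgG and 14.9 with bevacizumab. miR-30e-3p read 102 and 14.1 units. Both were higher with control IgG. With bevacizumab the blank-spot SD came to 27.1% and 28.7% of their signals. Their normalized differences were -1.36 (2.56-fold lower) and -1.28 (2.43-fold lower), 0.075 apart, while their 5p arms were 1.56 apart. Without the offset these 2 differences were larger, -3.06 and -3.00, close to the -3.15 of miR-30e-5p under the same setting. miR-30a-5p lay at -1.14 there, so the gap between the 2 arms of miR-30a was 1.91, against 0.27 in the main setting. Neither 3p arm passed the 5 SD limit on the bevacizumab array.

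The miR-30c 3p arms read at most 10.5 units above the blanks on either array. miR-30c-1-3p, from the Nfyc locus, read 5.08 units with control IgG and 9.08 with bevacizumab, and its normalized difference was 0.072. The blank-spot SD was 16.3% and 44.4% of those 2 signals. miR-30c-2-3p, from chromosome 1, read 10.5 units on the control array and lay 6.11 units below the blank mean on the bevacizumab array, where it was not detected. Its bound was at least 1.06-fold lower, against the lowest level detected on the bevacizumab array. The remaining 3p arms of the family, miR-30b-3p and miR-30d-3p, read 8.04 and 6.03 units on the control array and were not detected on the bevacizumab array.

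The local background recorded at miR-30a-3p and miR-30e-3p was about as high above the blanks as the spots themselves on the control array, at 97.0% and 102% of their signals. On the bevacizumab array it lay below the blank mean at both, by 4.82 and 20.2 units. miR-30a-3p was printed beside miR-30b-5p, and miR-30e-3p beside miR-30e-5p. On the control array miR-693-5p, another direct neighbour of miR-30b-5p, read 5.07 units with a local background 5.88 units below the blank mean. The remaining direct neighbour, miR-133a-3p, read 667 units there, with a local background 654 units above the blank mean. The part of bright neighbouring spots and of the local background in the 3p signals was not tested.

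Relatives of the family outside the 9 members, miR-30f and miR-384-5p, were on the array and are shown for their sequence.
miR-30f: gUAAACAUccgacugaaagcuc
miR-384-5p: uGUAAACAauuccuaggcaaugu
miR-384-5p has the miR-30 5p seed but matches miR-30a-5p at 12 of 22 positions, and it was not detected on either array. miR-30f carries the same letters shifted by 1 base, and its locus (chr4:120772621-120772642, plus strand) overlaps that of miR-30e-3p (chr4:120772618-120772639, minus strand) by 19 bases on the opposite strand. miR-30f read 145 units with control IgG and 77.9 with bevacizumab, a normalized difference of -0.68. That is less than 2-fold, and smaller than the differences of miR-30e-5p and miR-30e-3p.

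Processing moved the members' differences through the scaling, the offset (given above for the 3p arms) and the local background. A single factor per array shifts all members alike, whereas cyclic loess left miR-30a-5p at -1.09 and moved miR-30a-3p from -1.36 to -1.79. In the authors' deposited table, whose scale factors differ by 2.41-fold between the arrays (lower for bevacizumab), miR-30e-5p was 23.3-fold lower, miR-30b-5p 16.1-fold, miR-30c-5p 10.2-fold and miR-30a-5p 7.33-fold. In the same table miR-30d-5p was 3.30-fold lower (log2 -1.72), so its place near 0 in the main setting depends on the scaling; with cyclic loess it lay at 0.12 and with median scaling at -0.60. There 7 of 8 members were at least 2-fold lower, where 32.4% of the 917 miRNAs were. Scaled to the 5 control probes, all 8 were at least 2-fold lower, where 70.3% of the 917 were. The order of the 5p arms, from miR-30e-5p to miR-30d-5p, was the same in the deposited table and under scaling to the control probes as in the main setting. Those 2 settings apply a single factor per array to the same blank-subtracted signals, so their orders cannot differ from each other. With the local background the order changed, with miR-30a-5p lowest (-2.14) and miR-30c-5p highest (2.88).

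**Figure D3:**
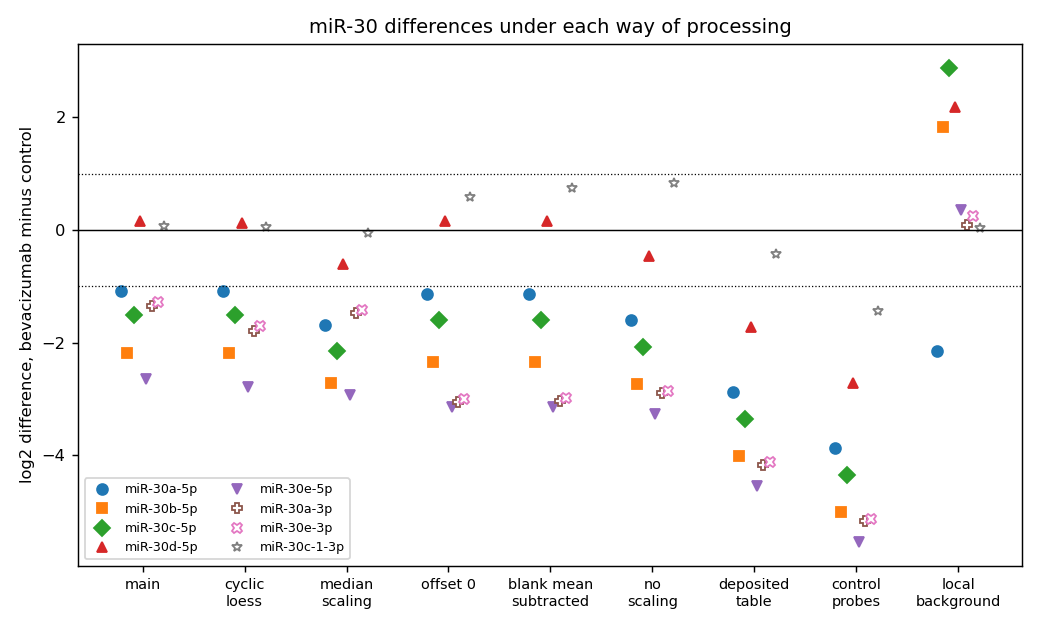
Log2 difference, bevacizumab minus control (y axis), of the 8 members detected on both arrays under each way of processing (x axis); filled symbols are 5p arms, open symbols 3p arms, and dotted lines mark 2-fold. Apart from the local background, miR-30e-5p is lowest and miR-30c-1-3p or miR-30d-5p highest in each column; with the local background miR-30b-5p, miR-30c-5p and miR-30d-5p lie above 2-fold higher.

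On the control array the local background recorded with the spot exceeded the spot itself for miR-30b-5p, miR-30c-5p and miR-30d-5p. Above the blanks, it came to 128% of the signal of miR-30c-5p, 105% of miR-30d-5p, 104% of miR-30b-5p, 97.0% of miR-30e-5p and 49.0% of miR-30a-5p there. On the bevacizumab array the shares were 6.86%, 69.8%, 24.1%, -22.7% and 33.5% in the same order. The pattern was not special to these spots: over the 83 miRNA probes of at least 500 units on the control array the median share was 80.9%, and over 69 such probes on the bevacizumab array 26.4%. When the local background was used for correction, miR-30b-5p, miR-30c-5p and miR-30d-5p were higher on the bevacizumab array (1.82, 2.88 and 2.18), miR-30e-5p lay at 0.35 and only miR-30a-5p stayed lower (-2.14). The control spots of the first 3 lay below their local background, and the correction puts such spots at the bottom of its scale. On the bevacizumab array these 3 spots exceeded theirs, so higher values there were fixed by the correction. In that setting 1 of 8 members was at least 2-fold lower and 3 were at least 2-fold higher, against 5.13% and 5.23% of all 917 miRNAs. The part of the local background in the result was not tested.

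**Figure D4:**
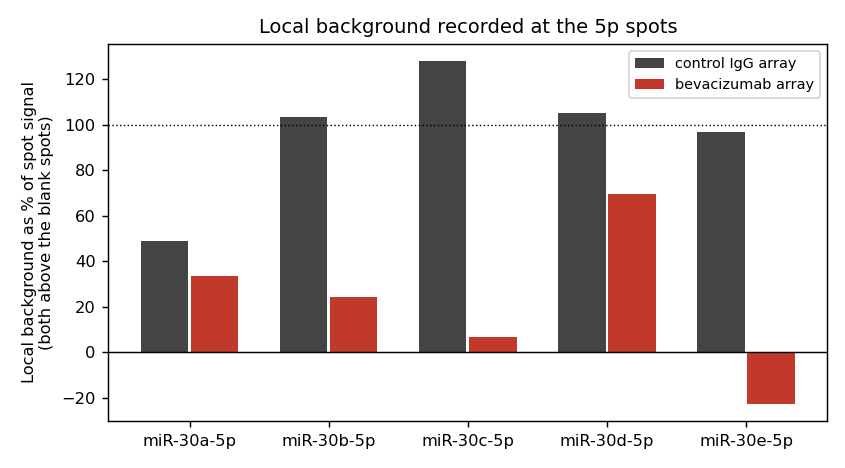
Local background as a percentage of the spot signal (y axis, both above the blank spots) at the 5 miR-30 5p spots on the control IgG array (dark bars) and the bevacizumab array (red bars), 1 spot each; the dotted line marks 100%. On the control array 3 of 5 bars exceed 100%, and on the bevacizumab array they run from -22.7% to 69.8%.

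Other families that are abundant in many tissues were lower as well. All 9 let-7 family probes (including miR-98-5p), both miR-26 probes and all 3 miR-29 probes were at least 2-fold lower, with medians of -1.87, -2.33 and -2.67, where 11.6% of all 917 miRNAs and 32.9% of those at the level of the miR-30 5p arms were lower by that size. With the local background these medians were 2.60, -1.51 and -0.34. In miR-30 it was 4 of 5 5p arms, with a median of -1.52. Within let-7 the differences ran from -2.84 (let-7g-5p) to -1.01 (let-7b-5p), so no let-7 probe was as near 0 as miR-30d-5p. These families differ in number and level, and no difference between them was tested. The let-7, miR-26 and miR-29 probes count in the share over all 917 miRNAs and were not left out of the 32.9%. The 5 miRNAs outside the family whose difference was nearest to the 5p median, over these 2 arrays, were let-7c-5p (-1.54), miR-145b (-1.54), miR-221-3p (-1.49), miR-7090-5p (-1.57) and miR-195b (-1.46).

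Summed marker signals of endothelial, mural, fibroblast, epithelial, striated muscle, leukocyte and erythroid cells were all lower on the bevacizumab array. So was the sum of the miR-30 5p arms. These sums are unscaled. Without scaling, the median log2 difference over the 917 miRNAs was 0.82, higher on the bevacizumab array. Single members of the fibroblast, leukocyte and erythroid lists had higher signals there. In bulk RNA, fewer cells of a type and less miRNA per cell cannot be told apart. Of 24 marker probes, 23 were detected with control IgG and 14 with bevacizumab. Of the 14 seen on both arrays, 10 passed 2-fold downward, where 11.6% of all 917 miRNAs did. The median difference of these 14 was -1.90 in the main setting but -0.053 with the local background, so it depends on the background as that of miR-30 does. The summed signal of the endothelial markers, miR-126a-3p and miR-126a-5p, was 997 units with control IgG and 86.5 with bevacizumab. That of the 2 mural markers, miR-143-3p and miR-145a-5p, was 2757 and 270.4 units, and that of the 3 fibroblast markers 1156 and 248 units. The 5 epithelial markers of the miR-200 family summed to 549 and 22.1 units; the second sum includes undetected probes that read below the blank mean. miR-200b-3p, the only one of them detected with bevacizumab, read 196 and 31.4 units. The 5 leukocyte markers summed to 282 and 70.7 units, the 3 erythroid ones to 1726 and 244 units, and the 3 striated muscle ones to 2090 and 230.4 units. Most of the erythroid sum was miR-451a, which read 1570 units with control IgG and 144 with bevacizumab. Single markers ran the other way, with higher signals on the bevacizumab array: miR-214-3p of the fibroblast list (87.2 and 140.4 units, normalized difference 0.39), miR-150-5p of the leukocyte list (21.1 and 44.2 units, 0.33) and the erythroid miR-486a-5p (27.1 and 94.5 units, 0.82). In the deposited table miR-214-3p and miR-150-5p were lower with bevacizumab (-0.58 and -0.20), and miR-486a-5p stayed higher (0.53). In the main setting, 0 of 2 leukocyte markers seen on both arrays passed 2-fold downward, and 1 of 2 erythroid ones. The markers not detected with bevacizumab were miR-200a-3p, miR-200c-3p, miR-141-3p and miR-429-3p of the epithelial list, miR-142a-3p, miR-142a-5p and miR-155-5p of the leukocyte list, the erythroid miR-144-3p and the muscle miR-206-3p. The hepatocyte marker miR-122-5p was not detected on either array. The 5 miR-30 5p arms summed to 8579 and 2634 units. The part of these cell types in the miR-30 differences was not tested.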

How the data were processed

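Total RNA labelled with Cy5 was hybridised to 1 Toray 3D-Gene miRNA array per group, per the labels. Per the file headers, the deposited scanner files give spot and local background intensities at 635 nm from 3 scan gains related by least squares; these intensities are linear, uncorrected and not normalized, and no spot was marked as failed. The deposited value table is also in intensity units; each column was a line of the blank-subtracted spot intensity (largest departure 0.0525 units) with a column median of 25.0, and dim miRNAs are empty. No label or header names the software behind these files.

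Blank statistics left out the highest and lowest 5% of the blank spots. In the main setting, spots were corrected with limma 3.58.1 (R 4.3.3; normexp with blank spots as negative controls, offset 50), and all 1900 miRNA probes were quantile-normalized. The offset makes differences of dim miRNAs smaller. Each of the 12 probes with several names was kept whole. A 2-fold size, among miRNAs detected on both arrays, was used for counts. With detection on 1 array only, the bound was set against the lowest detected level of the other. The 5 control probes for error and scaling were the brightest of those in 8 spots on both arrays. The script was tested on simulated data. Alternatives were other background corrections, normalizations, detection limits and the deposited table. The named miRNAs were the 9 members, their relatives, the comparison and marker lists, and the 5 nearest to the 5p median. Members, lists and settings were chosen with earlier results of these data known. The number of arrays limits the precision.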

Additional observations from a re-analysis of the deposited data

How the results depend on the processing

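No paired analysis was possible because each group has 1 array, and for the same reason no replicate could be left out. The count of members at least 2-fold lower was 6 in the main setting. It lay between 4 (detection at 5 SD, which leaves 5 members) and 8 (scaling to the control probes) in 9 of 10 alternatives. The share over all 917 miRNAs was 11.6% in the main setting, 32.4% in the deposited table and 70.3% with scaling to the control probes. With the local background 1 member was at least 2-fold lower, and 3 were at least 2-fold higher instead of 0. The shares there were 5.13% and 5.23%. For the other alternatives no share was computed, so their counts have no background beside them. With the local background the 5p median turned to 1.82 and the 3p median to 0.090. Of single members, miR-30b-5p turned to 1.82, miR-30c-5p to 2.88, miR-30e-5p to 0.35, miR-30a-3p to 0.090 and miR-30e-3p to 0.25. That 5p median is the value of miR-30b-5p, whose control spot lay below its local background. The 5p median of -1.52 moved to -2.14 with median scaling, -2.08 with no scaling, -3.35 in the deposited table and -4.35 with scaling to the control probes. The 3p median of -1.28, over the 3 arms detected on both arrays, moved to -1.70 with cyclic loess, -3.00 with offset 0, -2.99 with the blank mean subtracted and -2.86 with no scaling. It was -4.12 in the deposited table, -5.13 with scaling to the control probes and -0.76 with no detection filter, which adds miR-30c-2-3p. At 5 SD no 3p arm was left, so that setting has no 3p value. The cause was not tested, apart from the members that a detection limit adds or removes and the offset, which by its construction shrinks dim differences. Between no scaling, the deposited table and scaling to the control probes, the medians differ by the single factor per array, apart from rounding. The signals of the 3p arms on the bevacizumab array, at most 14.9 units above the blanks, limit what can be said of them.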
